A study of Mus musculus with 12 samples.

Results

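Synapses pass signals between neurons, and the transcripts of their proteins were measured here after contusion of the spinal cord, in wild-type mice and in knockouts of the cytokine genes Il1a and Il1b. The set comprised 37 genes of synaptic vesicles, of vesicle release, of the postsynaptic scaffold and of neurotransmitter handling, chosen by gene symbol in the platform's annotation. Of these, 36 were measured among 19938 genes. Vamp2, a vesicle fusion protein, lay only on a probe set annotated to several genes and was not analysed here. Each gene was represented by its brightest probe set with a single symbol.

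Whole-transcript expression arrays were made from total RNA of lesioned cord taken 24 h after a contusion of 50 kdyn, as a segment of 6 mm around the lesion, from mice aged 8 to 12 weeks. Wild type C57BL/6, the Il1a knockout (Il1a KO) and the Il1b knockout (Il1b KO), whose background strain is also given as C57BL/6, had 4 arrays each, so 12 arrays in 3 groups were compared. All 3 groups were injured, and uninjured cord was not analysed here. The labels do not describe the deleted parts of either gene. They call the arrays biological replicates without naming the animals, so a p-value measures the spread between these arrays.

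Neurotransmitter is stored in synaptic vesicles, which dock at the active zone of the nerve terminal and fuse with its membrane when calcium enters. Fusion is driven by SNARE proteins on the vesicle and the membrane, timed by synaptotagmins that bind calcium and by complexins that clamp the SNARE complex. Across the cleft, scaffold proteins hold receptors in place, and in the spinal cord fast inhibition uses glycine as well as GABA. The transcripts of these proteins lie mainly in neuronal cell bodies, while the proteins also fill terminals far from them.

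Il1a averaged 5.87 ± 0.232 (SD, n = 4) on the log2 scale in wild type, 4.97 ± 0.0749 in the Il1a KO and 5.10 ± 0.209 in the Il1b KO. Il1b averaged 7.83 ± 0.161 (SD, n = 4) in wild type, 8.08 ± 0.0946 in the Il1a KO and 6.42 ± 0.183 in the Il1b KO. The arrays of each knockout lay below all wild-type arrays for the gene it lacks, and Il1a lay below wild type in the Il1b KO too. Where the probes lie relative to the deletions was not known. Il1a KO replicate 1 stood apart in sex-linked genes, with Xist at 6.47 against 11.9 to 12.2 in all other arrays and the Y-linked Eif2s3y at 9.15 against 3.65 to 3.94. Array medians over all probe sets lay between 7.67 and 7.72. The r of 2 arrays across genes, which are not independent replicates, was 0.993 to 0.999. In this bulk tissue, fewer cells of a type and less RNA per cell cannot be told apart.

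The log2 values of the 36 genes ran from 7.56 for Slc17a7, the vesicular glutamate transporter carried by many sensory and corticospinal terminals, to 13.51 for Snap25, the membrane SNARE of neurons. Probe sets differ in how strongly they bind, so these values do not order the genes by transcript level. The replicate arrays were close together for these genes. The median SD within groups was 0.0449 on the log2 scale, against 0.0841 over all genes. It was 0.0562 in wild type, 0.0376 in the Il1a KO and 0.0386 in the Il1b KO for the synaptic genes, and 0.0960, 0.0579 and 0.0702 over all genes. The smaller SD was not set against genes of the same level.

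None of the 36 genes passed the test in any of the 3 comparisons. An adjusted p below 0.05 from limma, the Benjamini-Hochberg value over all genes, was the threshold. It was passed by 0.171% of all genes in the Il1a KO against wild type (34 genes), 0.813% in the Il1b KO against wild type (162 genes) and 0.652% between the knockouts (130 genes). At an unadjusted p below 0.05, 7 synaptic genes differed in the Il1a KO, where 8.32% of all genes did. In the Il1b KO 10 did, against 13% of all genes, and between the knockouts 1 did, against 7.79%. Single arrays moved these counts. The 7 became 3 without Il1a KO replicate 1 or replicate 3, and 4 without wild type replicate 4 or Il1b KO replicate 1 or 4. The 10 became 4 without wild type replicate 4 or Il1b KO replicate 1, and 6 without Il1b KO replicate 4. Counts also rose, the 7 to 8 without wild type replicate 1 or 2, and the 10 to 12 without wild type replicate 2 or Il1b KO replicate 2. Both knockouts were compared with the same wild-type arrays, so their values are given side by side and not as separate support for each other.

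The differences were small and most were positive. In the Il1a KO they ran from -0.15 to 0.13 on the log2 scale with a median of 0.04 (all genes 0.00), and 27 of 36 were positive, against 50.2% of all genes. In the Il1b KO they ran from -0.16 to 0.18 with a median of 0.05 (all genes 0.00), and 29 of 36 were positive, against 52.0% of all genes. Between the knockouts, as Il1a KO minus Il1b KO, the median was -0.02 (all genes -0.00), and 11 of 36 were positive, against 47.3%. The signs and medians were not set against genes of the same level, and 35 of the 36 lay over the median level of all genes. Many of the 36 genes shared an order of arrays within groups, so their signs are not separate observations. The share of positive signs depended on the scaling. With the values quantile-normalized again it became 24 of 36 in the Il1a KO, 25 of 36 in the Il1b KO and 18 of 36 between the knockouts. With arrays centred on their medians it was 27 of 36, 28 of 36 and 16 of 36. Without Il1a KO replicate 1 the median in the Il1a KO was 0.02, and 0 synaptic genes passed. The mean level over the 36 genes was 10.57 ± 0.0207 (SD, n = 4) in wild type, 10.59 ± 0.0213 in the Il1a KO and 10.62 ± 0.0222 in the Il1b KO.

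The intervals give, gene by gene, the range of differences compatible with the spread between arrays in the main fit. They do not cover the choice of scaling or of arrays. The median half-width of the 95% interval over the 36 genes was 0.0865. The bound farthest from 0 belonged to Slc17a7 in the Il1a KO (1.24-fold lower) and in the Il1b KO (1.25-fold lower), and to Homer1 between the knockouts (1.19-fold lower in the Il1a KO).

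**Figure D1:**
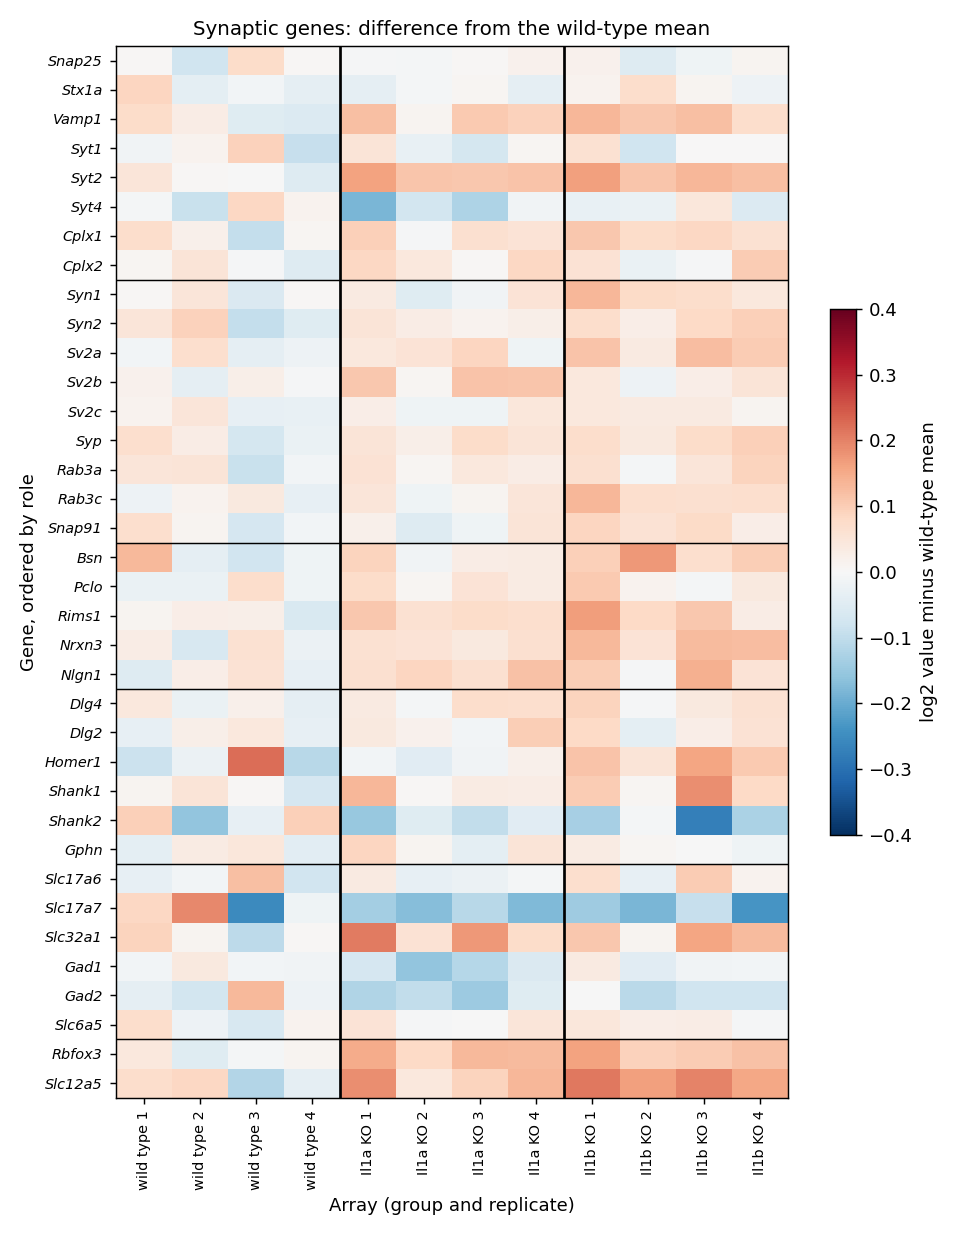
Colour shows the log2 value of each of the 36 synaptic genes (rows, grouped by role) in each of the 12 arrays (columns) minus that gene's wild-type mean. Syt2, Rbfox3 and Slc12a5 are above the wild-type mean in every knockout array, as are others such as Vamp1, Rims1, Nrxn3 and Syp. Slc17a7 is below it in every one, as are Shank2 and Gad2.

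The release machinery held the gene with the smallest adjusted p, Syt2, the synaptotagmin of fast synapses in the brainstem and cord. Its values were 10.34, 10.29, 10.28 and 10.24 in wild type, 10.45, 10.40, 10.40 and 10.40 in the Il1a KO and 10.45, 10.40, 10.42 and 10.41 in the Il1b KO. All knockout arrays lay above all wild-type arrays. The difference was 0.12 (95% interval 0.05 to 0.20, 1.09-fold, limma adjusted p = 0.305) in the Il1a KO and 0.13 (0.06 to 0.21, 1.10-fold, adjusted p = 0.127) in the Il1b KO. Between the knockouts it was -0.01 (-0.08 to 0.07).

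The other release genes gave mixed signs. Vamp1, a vesicle SNARE abundant in the cord, differed by 0.08 in the Il1a KO and 0.11 in the Il1b KO (adjusted p = 0.649 and 0.284). Snap25 read 13.44, 13.36, 13.51 and 13.44 in wild type, 13.43, 13.43, 13.44 and 13.46 in the Il1a KO and 13.46, 13.39, 13.42 and 13.45 in the Il1b KO, so its groups overlapped fully. Its intervals, -0.08 to 0.09 and -0.09 to 0.07, held 0 near their middle. Syt1, the calcium sensor of forebrain synapses, had differences of -0.01 and -0.00, and Syt4, a synaptotagmin that binds calcium weakly, had -0.10 and -0.02 (adjusted p = 0.63 and 0.919). The complexins Cplx1 and Cplx2 were at 0.05 and 0.05 in the Il1a KO and at 0.08 and 0.03 in the Il1b KO. Stx1a, the membrane SNARE partner of Snap25, was at -0.02 and 0.02. In all, 5 of the 8 measured release genes were positive in each knockout (4 in the Il1b KO when quantile-normalized again).

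The 9 vesicle proteins were all positive against wild type in both knockouts, with medians of 0.03 and 0.07. With the values quantile-normalized again, 6 of 9 were positive in the Il1a KO and 8 of 9 in the Il1b KO. Syn1, a synapsin that tethers vesicles to the cytoskeleton, read 11.18, 11.23, 11.12 and 11.18 in wild type, 11.22, 11.13, 11.17 and 11.23 in the Il1a KO and 11.31, 11.26, 11.25 and 11.22 in the Il1b KO. All groups overlapped, with 3 of the 4 Il1b KO arrays above every array of the other groups. The difference from wild type was 0.01 (-0.08 to 0.09) in the Il1a KO and 0.08 (-0.00 to 0.17, adjusted p = 0.41) in the Il1b KO, and -0.07 between the knockouts (adjusted p = 0.71). Sv2a, a vesicle glycoprotein, was at 0.04 and 0.09 (adjusted p = 0.884 and 0.34), and its relative Sv2b at 0.09 and 0.03.

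Sv2c and Rab3c were, with Syt2, the genes of least spread within groups. Sv2c, a further member of that family, read 11.58, 11.61, 11.53 and 11.53 in wild type, 11.59, 11.54, 11.54 and 11.61 in the Il1a KO and 11.60, 11.60, 11.60 and 11.57 in the Il1b KO. Its groups overlapped, with differences of 0.01 (-0.07 to 0.08) and 0.03 (-0.04 to 0.11). Rab3c, a small GTPase on vesicles, read 10.23, 10.27, 10.29 and 10.22 in wild type, 10.30, 10.24, 10.27 and 10.30 in the Il1a KO and 10.39, 10.32, 10.32 and 10.32 in the Il1b KO. Its Il1b KO arrays all lay above the other 8 arrays, by a difference from wild type of 0.08 (0.01 to 0.16, adjusted p = 0.352).

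The 5 active zone and adhesion genes were positive in both knockouts under each scaling tried, with medians of 0.05 and 0.10 (0.04 and 0.06 when quantile-normalized again). Rims1, the active zone scaffold that links vesicles to calcium channels, was at 0.08 in the Il1a KO and 0.10 in the Il1b KO (adjusted p = 0.651 and 0.32). Nrxn3, a neurexin of the presynaptic membrane, was at 0.05 and 0.11 (adjusted p = 0.803 and 0.245), and its postsynaptic partner Nlgn1 at 0.08 and 0.07. The large scaffolds Bsn and Pclo, which organise the active zone, were at 0.04 and 0.04 in the Il1a KO and at 0.11 and 0.04 in the Il1b KO.

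Of the 6 postsynaptic scaffold genes, 4 were positive in the Il1a KO and 5 in the Il1b KO (4 under both other scalings), and Homer1 and Shank2 had the widest spread within groups. Homer1, which links metabotropic glutamate receptors to calcium stores, read 8.68, 8.74, 8.99 and 8.65 in wild type, 8.75, 8.72, 8.75 and 8.79 in the Il1a KO and 8.88, 8.81, 8.92 and 8.87 in the Il1b KO. Wild type replicate 3 was above every other array, and all Il1b KO arrays lay above all Il1a KO arrays. The difference between the knockouts was -0.12 (-0.25 to 0.02, adjusted p = 0.706), and that of the Il1b KO from wild type was 0.11 (-0.03 to 0.24, adjusted p = 0.503). Without wild type replicate 3 the Il1b KO difference from wild type was 0.18 and that of the Il1a KO was 0.06, in place of -0.01.

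Shank2, which joins scaffold complexes below the membrane, read 9.30, 9.04, 9.17 and 9.30 in wild type, 9.05, 9.16, 9.10 and 9.16 in the Il1a KO and 9.07, 9.20, 8.93 and 9.08 in the Il1b KO. The groups overlapped, with differences of -0.08 (-0.23 to 0.06) and -0.13 (-0.28 to 0.01). Its 3 probe sets disagreed in sign. The other two gave 0.01 and -0.18 in the Il1a KO, and 0.05 and -0.15 in the Il1b KO. Dlg4, the main scaffold of excitatory synapses, was at 0.04 and 0.05, its relative Dlg2 at 0.04 and 0.03, and Shank1 at 0.05 and 0.09. Gphn, which anchors glycine and GABA receptors, was at 0.03 (-0.06 to 0.11) and 0.01 (-0.08 to 0.09).

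The 6 transmitter genes did not share a sign, with 2 positive in the Il1a KO and 3 in the Il1b KO (2 when quantile-normalized again). Gad1, an enzyme that makes GABA, read 10.45, 10.50, 10.46 and 10.45 in wild type, 10.40, 10.31, 10.35 and 10.41 in the Il1a KO and 10.50, 10.42, 10.45 and 10.46 in the Il1b KO. Its Il1a KO arrays lay below all 8 others. The difference was -0.10 (-0.18 to -0.02, adjusted p = 0.45) from wild type and -0.09 (-0.17 to -0.01, adjusted p = 0.55) from the Il1b KO, and the Il1b KO differed from wild type by -0.01 (-0.09 to 0.07). Gad2, the other GABA-making enzyme, read 10.37, 10.33, 10.53 and 10.38 in wild type, 10.28, 10.30, 10.26 and 10.35 in the Il1a KO and 10.40, 10.29, 10.32 and 10.32 in the Il1b KO. Those arrays overlapped, at -0.10 (adjusted p = 0.597) and -0.07 (adjusted p = 0.588).

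Slc32a1, the vesicular transporter that loads both GABA and glycine, had the opposite sign to the GABA-making enzymes. It read 9.47, 9.39, 9.28 and 9.38 in wild type, 9.59, 9.44, 9.55 and 9.45 in the Il1a KO and 9.49, 9.39, 9.54 and 9.51 in the Il1b KO. The groups overlapped at differences of 0.13 (0.02 to 0.24, adjusted p = 0.51) and 0.10 (-0.01 to 0.21, adjusted p = 0.432). Slc6a5, the glycine transporter of glycinergic neurons, was at 0.02 in each knockout, with intervals of -0.06 to 0.11 in both.

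The glutamate transporters differed in spread. Slc17a7 read 7.90, 8.01, 7.56 and 7.80 in wild type, 7.69, 7.65, 7.71 and 7.64 in the Il1a KO and 7.68, 7.64, 7.73 and 7.58 in the Il1b KO. Of the wild-type arrays, 3 lay above all knockout arrays and replicate 3 lay below them. The differences were -0.15 (-0.31 to 0.01, adjusted p = 0.656) and -0.16 (adjusted p = 0.381). Without wild type replicate 3 they became -0.23 and -0.25. Slc17a6, the transporter of most excitatory neurons of the cord, was at -0.01 (-0.11 to 0.10) and 0.04 (-0.06 to 0.14).

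Rbfox3, the splicing factor known as the nuclear antigen of mature neurons, read 10.51, 10.42, 10.46 and 10.48 in wild type, 10.62, 10.55, 10.60 and 10.60 in the Il1a KO and 10.63, 10.56, 10.57 and 10.59 in the Il1b KO. All knockout arrays lay above all wild-type arrays, with differences of 0.12 (0.05 to 0.20, adjusted p = 0.32) and 0.12 (0.04 to 0.20, adjusted p = 0.181). Slc12a5, the potassium-chloride cotransporter that keeps GABA and glycine inhibitory and is known to be lost from motor neurons after cord injury, read 11.27, 11.28, 11.08 and 11.16 in wild type. It read 11.38, 11.24, 11.29 and 11.33 in the Il1a KO and 11.41, 11.36, 11.40 and 11.35 in the Il1b KO. The Il1b KO arrays lay above all wild-type arrays, at 0.18 (0.08 to 0.29, 1.13-fold, adjusted p = 0.135). The Il1a KO arrays overlapped with wild type, at 0.11 (0.01 to 0.22, adjusted p = 0.564).

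**Figure D2:**
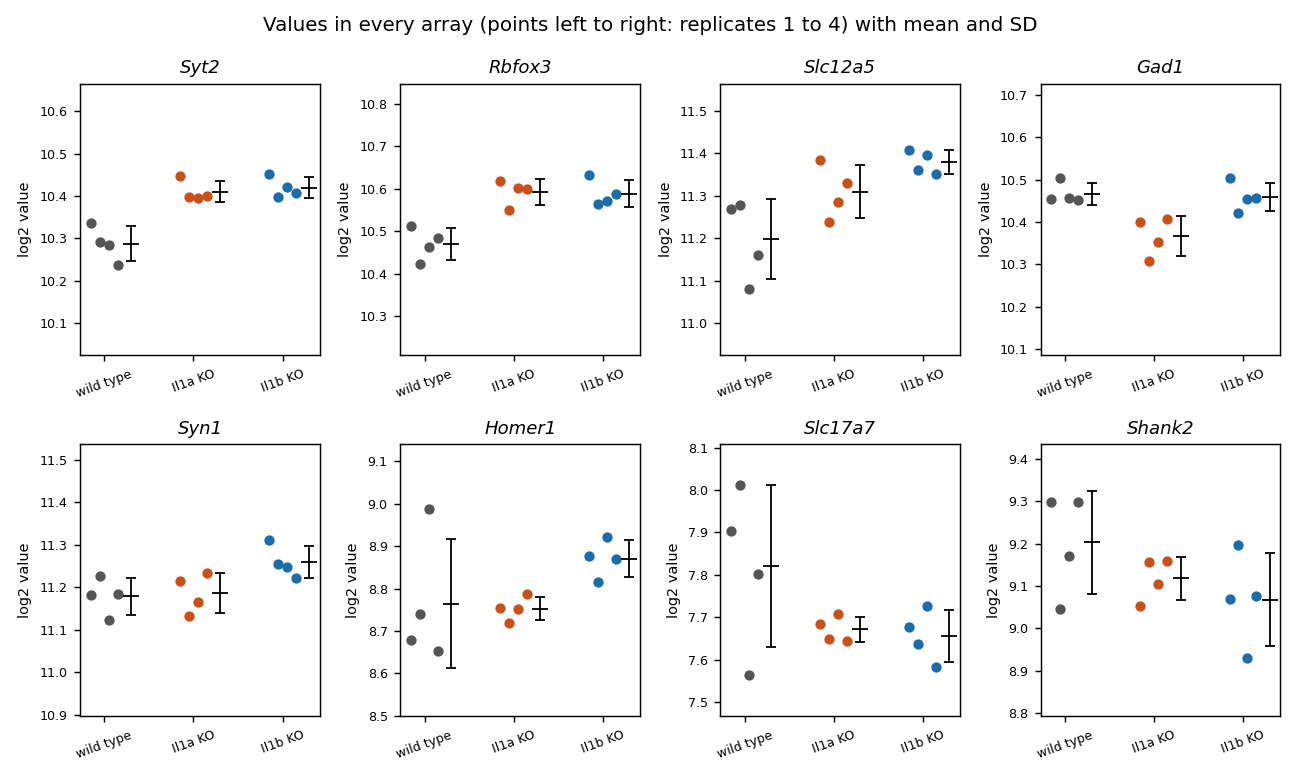
Each panel plots the log2 value of a gene in every array (points), with the group mean and SD (bars, n = 4), over a vertical axis of the same span that does not start at 0. Syt2 and Rbfox3 separate both knockouts from wild type, Slc12a5 separates the Il1b KO, Gad1 sets the Il1a KO below the rest, and Homer1 and Slc17a7 show wild type replicate 3 apart.

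Arrays of the 2 groups that did not overlap were counted over the set. In the Il1a KO, 4 genes lay wholly above wild type (Syt2, Rims1, Nlgn1 and Rbfox3), where 2.87% of all genes did, and Gad1 lay wholly below, where 2.19% did. In the Il1b KO, 5 lay wholly above (Syt2, Rab3c, Rims1, Rbfox3 and Slc12a5), against 5.06% of all genes, and 0 lay below, against 1.94%. Between the knockouts, 0 lay wholly higher in the Il1a KO, against 2.55%, and Rab3c, Homer1 and Gad1 lay wholly lower, against 4.69%.

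Calls appeared under other variance models. With array weights, which gave wild type replicate 4 a weight of 2.86 and the other wild-type arrays 0.327 to 0.574, Syt2 passed in the Il1a KO (adjusted p = 0.0367), and Syt2, Slc12a5, Nrxn3, Homer1 and Rbfox3 passed in the Il1b KO (adjusted p = 0.0147 to 0.0449). Over all genes 306 and 1145 passed with these weights. Wild type replicate 4 had the lowest mean over the synaptic genes of any wild-type array (10.54). With an intensity trend, Syt2 and Slc12a5 passed in the Il1b KO (adjusted p = 0.0408 and 0.0452), where 303 of all genes passed.

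**Figure D3:**
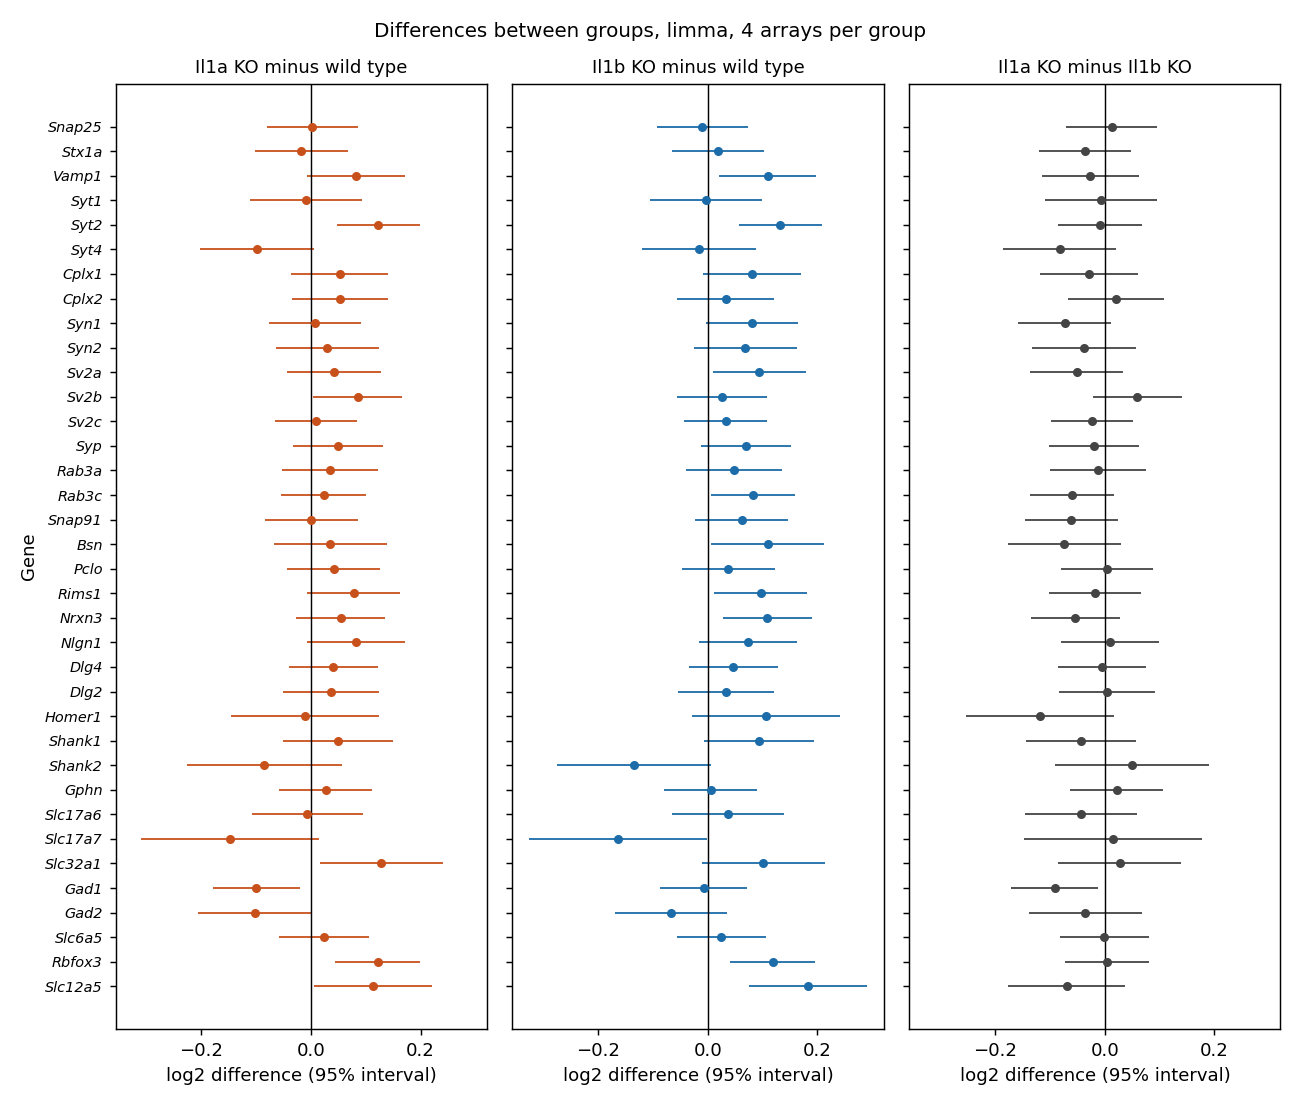
Points give the log2 difference of each of the 36 genes and lines its 95% interval from limma, for the 3 comparisons (4 arrays per group). All differences lie between -0.16 and 0.18, and the adjusted p is above 0.05 for every gene in every panel.

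Promoters are shown for the genes among the 3 smallest p-values of either knockout against wild type, which were Syt2, Rbfox3, Slc12a5 and Gad1, to set their start regions side by side. Each run is the 250 bases upstream of the most upstream RefSeq start (GRCm38.p6), read 5′ to 3′ on the gene's strand, and capitals mark matches on either strand to GGGCGG (the GC box bound by Sp factors) or TATAAA. The windows are chr1:134646362-134646611 (plus strand) for Syt2, chr11:118761042-118761291 (minus strand) for Rbfox3, chr2:164960596-164960845 (plus strand) for Slc12a5 and chr2:70561879-70562128 (plus strand) for Gad1.
Syt2: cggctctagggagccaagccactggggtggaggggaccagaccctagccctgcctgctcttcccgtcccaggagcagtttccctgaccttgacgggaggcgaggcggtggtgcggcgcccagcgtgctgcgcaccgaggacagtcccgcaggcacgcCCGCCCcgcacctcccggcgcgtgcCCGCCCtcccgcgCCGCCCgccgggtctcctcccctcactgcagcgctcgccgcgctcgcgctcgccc
Rbfox3: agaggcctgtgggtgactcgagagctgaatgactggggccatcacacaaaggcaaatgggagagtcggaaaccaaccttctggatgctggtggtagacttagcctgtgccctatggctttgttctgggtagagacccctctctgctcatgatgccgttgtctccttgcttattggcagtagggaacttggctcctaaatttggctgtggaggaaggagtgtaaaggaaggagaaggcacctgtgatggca
Slc12a5: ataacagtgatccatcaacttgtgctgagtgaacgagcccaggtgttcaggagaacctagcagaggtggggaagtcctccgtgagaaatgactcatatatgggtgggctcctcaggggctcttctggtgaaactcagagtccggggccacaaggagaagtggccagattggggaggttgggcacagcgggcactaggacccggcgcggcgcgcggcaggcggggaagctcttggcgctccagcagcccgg
Gad1: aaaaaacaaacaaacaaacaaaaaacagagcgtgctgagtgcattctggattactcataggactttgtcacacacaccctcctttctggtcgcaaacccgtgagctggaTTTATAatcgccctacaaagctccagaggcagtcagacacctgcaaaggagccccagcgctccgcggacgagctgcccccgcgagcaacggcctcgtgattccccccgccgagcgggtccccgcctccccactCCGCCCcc

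The 4 windows were not alike. That of Syt2 held 3 GC boxes at a GC content of 76.0%, that of Gad1 held 1 GC box and 1 TATA match at 58.0%, and those of Rbfox3 (52.8%) and Slc12a5 (61.2%) held neither motif. RefSeq promoters were matched for 32 of the 37 genes (50 starts). GGGCGG was found in 42.0% of these windows against 32.7% of all 32851, TATAAA in 8.0% against 12.4%, and TGACGTCA, the cAMP response element, in 2.0% (Syn1) against 1.55%. The median GC content was 56.6%, against 52.4% over all promoters. These matches are a description of letters and not of binding.

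The order of arrays within a group was shared by many synaptic genes. Il1b KO replicate 1 was the highest of its group for 20 of the 36 genes (55.6%, against 17.7% of all genes) and the lowest for 0. Il1b KO replicate 2 was the lowest for 20 (55.6%, against 27.0%). In the Il1a KO, replicate 1 was the highest for 18 (50.0%, against 24.9%) and replicate 2 the lowest for 21 (58.3%, against 30.4%), and replicate 2 was the highest for 0. In wild type, replicate 3 was the highest for 13 genes (36.1%, against 24.6% of all genes) and the lowest for 13 (36.1%, against 38.3%, so a share near that of all genes). Replicate 4 was the lowest for 13 (36.1%, against 17.3%). The 13 genes at the top of wild type replicate 3 included Snap25, Homer1, Gad2 and Slc17a6, and the 13 at its bottom included Syn1, Syp, Slc17a7, Slc32a1 and Slc12a5.

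**Figure D4:**
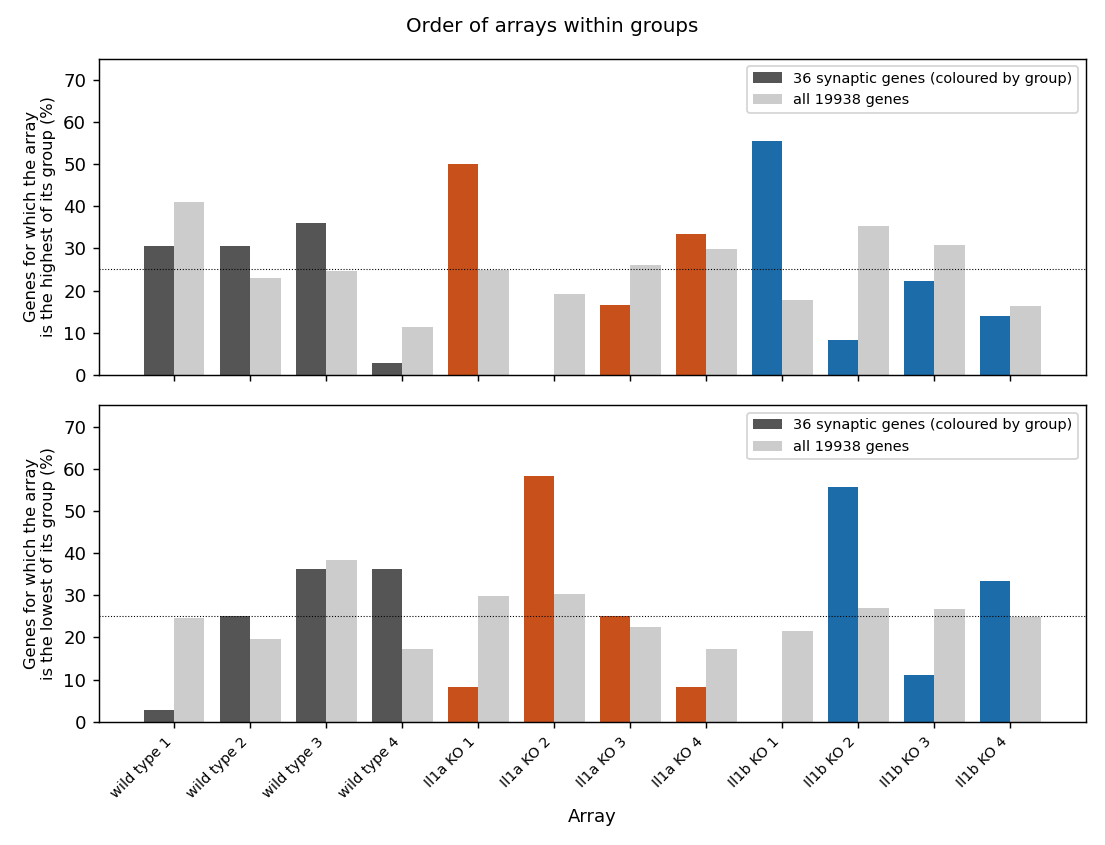
Bars give the percentage of the 36 synaptic genes (coloured by group) and of all 19938 genes (grey) for which an array is the highest (upper panel) or the lowest (lower panel) of its group of 4. The dotted line is the equal share of 25%, and Il1b KO replicate 1 (55.6% highest) and Il1a KO replicate 2 (58.3% lowest) lie far from it.

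Of 120 further genes of the same machinery, 110 were measured. In the Il1a KO 0 passed the test and 80 were positive (79 when quantile-normalized again), with a median of 0.03. In the Il1b KO 1 passed, a share near the 0.813% of all genes, and 84 were positive with a median of 0.05. When quantile-normalized again, 71 were positive and the median was 0.02. Between the knockouts 0 passed and 46 were positive, but 64 when quantile-normalized again. At an unadjusted p below 0.05 the counts were 18, 23 and 0, where 8.32%, 13% and 7.79% of all genes were counted. Slitrk3, an adhesion protein that induces inhibitory synapses, rose in the Il1b KO by 0.26 (1.20-fold, adjusted p = 0.0351) and was at 0.17 in the Il1a KO (adjusted p = 0.328). By class in the Il1a and Il1b KO, 29 and 31 of 42 further release and vesicle genes were positive, 26 and 28 of 31 active zone and adhesion genes, 16 and 18 of 21 scaffold genes, and 9 and 7 of 16 transmitter genes. When quantile-normalized again these were 28 and 27 of 42, 26 and 24 of 31, 16 and 14 of 21, and 9 and 6 of 16.

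Of 21 other neuronal markers measured, 17 were positive in the Il1a KO and 19 in the Il1b KO (16 and 17 when quantile-normalized again). None passed the test with limma, and 6 and 7 had an unadjusted p below 0.05, against 8.32% and 13% of all genes. Elavl3, a neuronal RNA-binding protein, was at 0.16 in the Il1b KO (adjusted p = 0.0699), and Thy1, a surface protein of neurons, at 0.15 and 0.17 (adjusted p = 0.292 and 0.0971).

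Markers of other cells are described by mean level and sign, with no test of a list. Their part in the values of the synaptic genes was not tested. The mean level of mature oligodendrocyte markers ran from 11.31 to 11.46 in wild type, 11.48 to 11.64 in the Il1a KO and 11.42 to 11.56 in the Il1b KO, with 11 of 11 positive in each knockout (10 in the Il1b KO when quantile-normalized again) and 0 past the test. That of neutrophil markers ran from 7.51 to 7.88, 7.20 to 7.53 and 7.06 to 7.77, with 0 and 2 of 11 positive. Ly6g, a surface protein of neutrophils, fell in the Il1b KO (1.47-fold lower, limma adjusted p = 0.0087). It was 1.37-fold lower in the Il1a KO (adjusted p = 0.098). Its mean levels were low, at 6.71 in wild type, 6.26 in the Il1a KO and 6.16 in the Il1b KO. Skeletal muscle markers ran from 7.18 to 7.59, 7.15 to 7.20 and 7.09 to 7.24, with 0 of 12 positive in either knockout, and reactive astrocyte genes from 11.47 to 11.63, 11.26 to 11.48 and 11.42 to 11.57, with 0 and 1 of 12 positive. In the Il1a and Il1b KO, 8 and 9 of 12 astrocyte markers were positive (7 and 6 when quantile-normalized again), 4 and 1 of 9 microglia markers (3 and 2), 2 and 5 of 11 monocyte and macrophage markers (2 and 4), 5 and 6 of 9 endothelial markers (5 and 5), and 6 and 7 of 10 dorsal root and Schwann markers (5 and 6). Sox9, an astrocyte transcription factor, fell in the Il1b KO by 0.19 on the log2 scale (adjusted p = 0.0405). Gpr34, a receptor of microglia, was higher in the Il1a KO than in the Il1b KO by 0.31 (adjusted p = 0.0299), at low mean levels of 6.03 and 5.72. In that comparison 5 of 9 microglia markers were positive.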

How the data were processed

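The values used were the log2 expression values that the authors deposited, with 1 value per probe set and array. GCOS 1.4, RMA, limma and Partek were used per the submitters' processing notes, with no role given. That the log2 values are RMA summaries was inferred from this and from their range (2.97 to 14.4). RMA makes the arrays' distributions alike, which can hide a shift in total RNA, and it compresses fold changes of dim genes. The array medians over all probe sets still differed slightly. No source named the platform annotation's build.

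Of 35557 probe sets, 21789 had exactly 1 gene symbol, 1621 had several and 12147 had no listed gene. The brightest set stood for the 999 genes with more than 1 set, which left 19938 genes. RefSeq symbols were matched for 19856 of these. The comparisons used limma 3.58.1 (R 4.3.3), with 1 fit over 12 arrays, no trend, two-sided, and Benjamini-Hochberg adjustment over all genes. The number of arrays limits the precision. The members and lists were chosen with earlier results of these data known. Values in every array are given for the 3 members with the smallest p per comparison, the 3 with the largest and the 3 with the smallest SD, and, chosen after values were seen, Snap25, Gad2 and Slc32a1. Other lists are counted, with genes named where they passed or had one of the smallest p-values. The alternatives were 9 settings and leaving out each of the 12 arrays.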

Additional observations from a re-analysis of the deposited data

Results flagged for a closer look

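In groups of 4 arrays, the gap of the highest or lowest array to the next was compared with Dixon's 95% critical value. The 36 genes and their mean, in 3 groups each, gave 111 tests, of which 6 exceeded it, and chance gives about 1 in 20. Syt2 in Il1a KO replicate 1 was the highest of its group at 10.4477, with the others at 10.3957 to 10.4006. Sv2b in Il1a KO replicate 2 was the lowest at 10.74, with the others at 10.8403 to 10.8471. Rab3c in Il1b KO replicate 1 was the highest at 10.3857, with the others at 10.3172 to 10.3218. Pclo in wild type replicate 3 was the highest at 10.2789, with the others at 10.182 to 10.1926. Nrxn3 in Il1b KO replicate 2 was the lowest at 11.322, with the others at 11.3899 to 11.3962. Gad1 in wild type replicate 2 was the highest at 10.5048, with the others at 10.4516 to 10.4559.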

How the results depend on the processing

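The count of synaptic genes past the threshold stayed at 0 in the 3 comparisons under all alternatives other than these. With array weights it was 1 in the Il1a KO against wild type and 5 in the Il1b KO against wild type, and with an intensity trend it was 2 in the Il1b KO. The count over all genes was 72 with the trend, 15 with only the groups compared, and 306 with array weights in the Il1a KO, 18 to 49 with an array left out. In the Il1b KO these were 303, 85 and 1145, and 106 to 177. The counts that moved by over 1.5 times were 18, 19 and 19 in the Il1a KO without wild type replicate 4, Il1a KO replicate 3 and Il1a KO replicate 4, and 106 and 107 in the Il1b KO without wild type replicate 4 and Il1b KO replicate 1. The median between the knockouts (-0.0211) was -0.0101 without Il1a KO replicate 2, -0.00333 with the values quantile-normalized again and -0.00651 with arrays centred on their medians. Between the knockouts array weights gave 244. The median difference of the 36 genes in the Il1b KO was 0.027 with the values quantile-normalized again and 0.0795 with array weights. The cause was not tested. With the replicate block, 0 synaptic genes and 26, 120 and 105 genes in all passed in the 3 comparisons. The deviations of same-numbered arrays from their group means had r from -0.374 to 0.441 (12 pairs, 2 over 0.1). Those of differently numbered arrays had r from -0.511 to 0.568 (36 pairs, 12 over 0.1). The labels do not say whether a number is shared between groups, and these r values cannot exclude a small shared effect. Of 21 alternatives, at least 1 turned the sign of 9 genes in the Il1a KO, 9 in the Il1b KO and 16 between the knockouts, all with differences of at most 0.05.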
